A study of Saccharomyces cerevisiae with 8 samples.

Results

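The transcript response of budding yeast (Saccharomyces cerevisiae) of strain BY4741 to 1 h in 5 mM zinc chloride was measured on 2 of the 8 arrays of a study of zinc and the pif1 mutation. These are the 2 arrays whose title sets wild type with zinc against wild type without zinc, numbered Exp 1 and Exp 2 in the labels and called replicate 1 and replicate 2 here. The study also set a pif1 mutant of the same strain (pif1::KanMX, which lacks the Pif1 DNA helicase) with zinc against the mutant without zinc, and the mutant against the wild type in each medium, with 2 arrays for each. Wild-type cells were BY4741 with no other change named, mutant cells were BY4741 with the KanMX deletion, and all cultures reached an A660 of 0.6 in YPD, a rich medium, at 28 °C. The zinc cultures then received ZnCl2 to 5 mM and every culture grew for 60 min more, so the untreated RNA comes from cells that had also grown on. BY4741 is a laboratory strain of mating type a with deletions in HIS3, LEU2, MET17 and URA3, a genotype that both RNAs of each wild-type array share. The labels do not say whether Exp 1 and Exp 2 were separate cultures. The p-values rest on the spread between arrays of the same comparison, pooled over all 8 arrays, and this spread may be technical.

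Each array held 2 RNAs, the zinc RNA in Cy5 on replicate 1 and in Cy3 on replicate 2. Of 6212 IDs in the table, 4578 had a value on both arrays and were tested. Another 57 IDs with both values lie between YMR176W and YMR250W, where the values look displaced by 1 ID, and are described last. A further 352 IDs outside that run had a value on 1 array only. All values are log2 ratios of zinc over no zinc after each array was centred on its median, so they are differences relative to the median ID and say nothing about absolute levels. Values of single arrays are given in the order replicate 1, replicate 2.

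Zinc is a cofactor of many enzymes and transcription factors, and at high concentration it competes with other metals for proteins and transporters. Yeast takes zinc up through plasma membrane importers that the activator Zap1 keeps low when zinc is plentiful, and stores the surplus in the vacuole. Iron-sulfur (Fe-S) clusters are the cofactors of several enzymes of amino acid synthesis, and the activator Aft1 raises iron uptake genes when clusters run short.

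The 4 comparisons form a loop whose log2 ratios should sum to about 0, and as labelled they did not for many IDs. The mutant with zinc can be reached from the untreated wild type by 2 routes, through the wild-type zinc arrays or through the pif1 zinc arrays. Over 3818 IDs with all values, the 2 routes differed with an SD of 0.491, and by at least 2-fold for 141 IDs. With the strain labels of the zinc arrays exchanged they differed with an SD of 0.378, and by at least 2-fold for 66 IDs. Exchanging the zinc labels of the mutant arrays gives a sum of the same size, and so does reversing the direction of all mutant ratios. The sum cannot tell these apart, and the sources used here do not give the direction of the ratios. The lowest correlation with another array was that of replicate 1 with replicate 2 of the mutant comparison without zinc (r = −0.365 across 3857 IDs), and the labelled direction was kept. The arrays are called labelled wild type for this reason, and pif1 medians are given for several groups. The 2 zinc arrays labelled pif1 were noisier, with a correlation of 0.573 across 4272 IDs and a within-pair SD of 0.431. Those labelled wild type had 0.868 across 4635 IDs and an SD of 0.235, so the pif1 values are the less certain.

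The share of IDs with a value differed between the mutant comparisons too. Of the 50 IDs at least 4-fold higher with zinc, 98% and 100% were present on the 2 arrays that set the mutant against the wild type without zinc. The shares were 64% and 80% on the 2 arrays that made this comparison with zinc. Of 3196 IDs that did not pass, 94.2% and 97.2% were present without zinc and 93.6% and 97.3% with zinc. HIS3 (−0.23) and URA3 (−0.07), in which BY4741 has deletions, had values on both wild-type zinc arrays, and LEU2 and MET17 had none. Of the genes specific to a cells, MFA2, STE2, STE6, BAR1, ASG7 and AGA2 had values, and MFA1 had none. Of the genes specific to alpha cells, SAG1 had a value (−0.18) and STE3 had none. A ratio array shows presence of a spot signal only, and such values can come from background or cross-hybridisation, which was not tested.

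In total 1382 of 4578 IDs passed limma's test at an adjusted p under 0.05, which is 30.2% (672 higher or 14.7%, 710 lower or 15.5%). These shares are the background against which the counts of the gene groups below are read. Among the groups near or below the 30.2% were the phosphate (31.6% passing), cell wall (28.6%) and arginine genes (28.6%). So were the genes of the TCA cycle and retrograde response (26.1%), DNA damage (18.8%) and mitochondrial import (14.3%). The 2 arrays correlated at 0.867 across the tested IDs. That 0 of the 1382 had opposite signs on the 2 arrays follows largely from the test, which favours IDs whose arrays agree. Of all IDs tested, 215 passed and were at least 2-fold higher (4.70%), and 140 passed and were at least 2-fold lower (3.06%). The median of all IDs was 0.00 and the quartiles were −0.32 and 0.31. With replicate 1 left out 434 IDs passed and with replicate 2 left out 468, and 303 of the 1382 passed either way. With all arrays scaled to 1 spread 700 passed. The smallest difference that passed was 0.377 in size. Where a gene group described in the next paragraphs, up to the strain labels, has 0 genes passing in a direction, limma also gave 0 there at an unadjusted p under 0.05, with these exceptions. They are 1 higher gene among the branched-chain genes, metallothioneins and histones each, 2 among the glutamate and the ergosterol genes each, and 1 lower gene among the proteasome, autophagy and multidrug genes each.

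**Figure D1:**
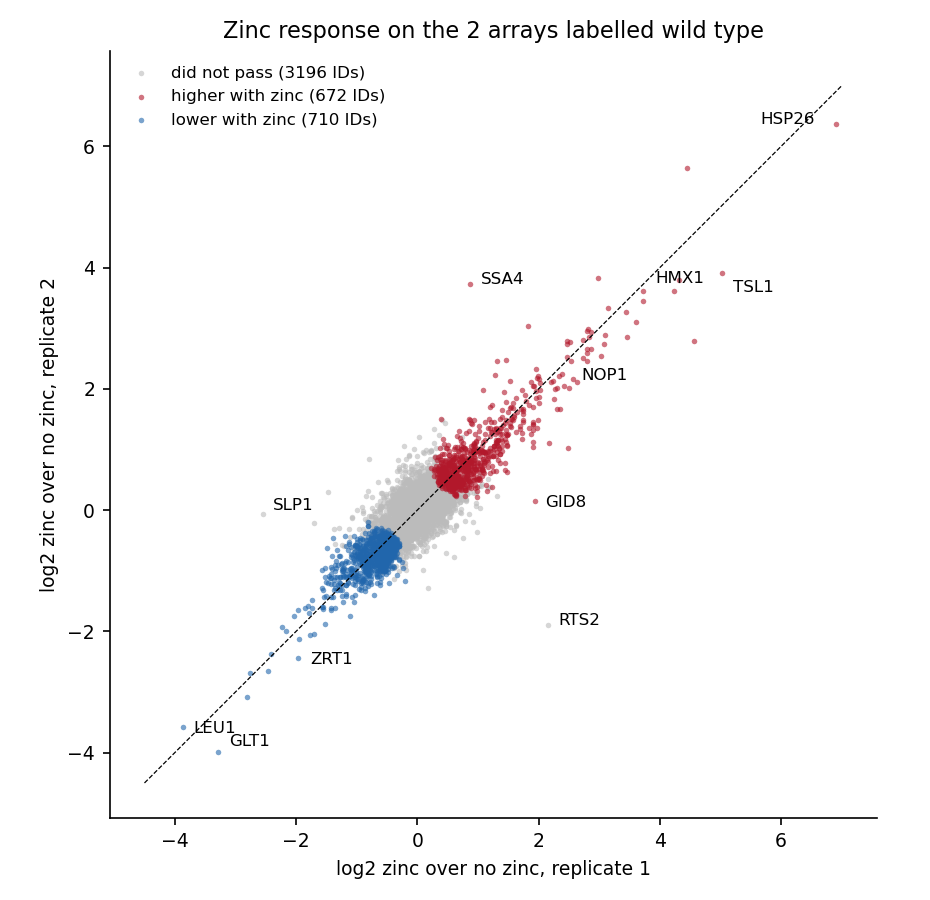
Each point is 1 ID, with its log2 ratio of zinc over no zinc on replicate 1 (x axis) and on replicate 2 (y axis); red IDs passed and were higher, blue IDs passed and were lower, grey IDs did not pass, and the dashed line marks equal values. The 1382 coloured IDs all lie in the lower left or upper right, which the test favours. RTS2 (2.16 and −1.90) and SSA4 (0.87 and 3.73) stand off the line.

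The highest ratios belonged to genes of several roles. HSP26, a small heat shock chaperone that holds unfolded proteins, was at 6.90 and 6.37 (99.5-fold, limma adjusted p = 2.84e-06). TSL1, a regulatory subunit of trehalose synthase, was at 5.03 and 3.91 (22.1-fold), and HSP12, a small membrane-associated stress protein, at 4.31 and 3.80 (16.7-fold). No other ID lay above HSP26 on either array. NQM1, a transaldolase, was at 4.24 and 3.62, and GCY1, an aldo-keto reductase, at 3.72 and 3.45. HMX1, the heme oxygenase that releases iron from heme, was at 3.72 and 3.61. The 2 arrays differed by 0.11 for HMX1 and by over 1 for MET28, a cofactor of sulfur gene transcription (4.56 and 2.79). STR3, cystathionine beta-lyase, was at 2.98 and 3.82, HSP31, a methylglyoxalase, at 3.61 and 3.11, and RTC3 at 3.44 and 3.27. PGM2, phosphoglucomutase, was at 3.14 and 3.33, FIT3, a mannoprotein of siderophore retention, at 3.45 and 2.86, BDH2 at 3.10 and 2.89, and TFS1, an inhibitor of carboxypeptidase Y, at 3.07 and 2.74. All of these genes passed with either array left out.

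YOR121C was at 4.45 and 5.64 (mean 5.05), above every named gene except HSP26. It is numbered next to GCY1 (3.58), on the opposite strand by its name. YFL015C (2.78) is likewise numbered next to HSP12, and YMR173W-a (2.88) next to DDR48 (2.77). Whether the members of these pairs share sequence was not analysed here, and their signals may not be separate measurements.

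Several enzymes that carry an Fe-S cluster were among the lowest ratios. LEU1, isopropylmalate isomerase of leucine synthesis, was at −3.86 and −3.57 (13.1-fold lower, adjusted p = 2.84e-06), and GLT1, glutamate synthase, at −3.28 and −3.99 (12.4-fold lower). LYS4, homoaconitase of lysine synthesis, was at −2.76 and −2.68 and ILV3, dihydroxyacid dehydratase, at −2.46 and −2.66. Each of these lay below −2 on both arrays. IRC7, a cysteine beta-lyase homolog, was at −2.42 and −2.37. ZRT1, the high-affinity zinc importer, was at −1.97 and −2.44, and MLS1, malate synthase, at −2.23 and −1.93. SSN3, the cyclin-dependent kinase of the Mediator complex, was at −2.16 and −1.99. MYG1 followed at −1.95 and −2.13, and SRO9, an RNA-binding protein, at −1.77 and −2.06. DBP2, an RNA helicase, was at −2.03 and −1.75, DPH2, which acts in diphthamide synthesis, at −1.70 and −2.04, FET4 at −1.96 and −1.65, and FUI1, the uridine permease, at −1.79 and −1.69. These genes of low ratio passed with either array left out.

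Zinc uptake genes fell while most other zinc genes did not pass. Of 12 tested genes of zinc transport, 3 fell and 1 rose (median 0.03). ZRT2, the low-affinity zinc importer, was at −1.52 and −1.88 (adjusted p = 0.000519), and FET4, a low-affinity importer of iron and zinc, fell by 1.81 (adjusted p = 0.000138). COT1, which carries zinc and cobalt into the vacuole and belongs to the Aft1 regulon as well, rose to 1.10 and 0.95 (adjusted p = 0.000801). The 3 importers and COT1 each lay on 1 side of 0 on both arrays and passed with either array left out. ZRT3, the exporter from the vacuole, was at 0.19 and 0.01, ZRG17, of the endoplasmic reticulum, at −0.40 and 0.31, and YKE4 at −0.09 and −0.21. Over the 11 zinc genes with a value on all 4 zinc arrays the median was 0.00, against −0.47 on the arrays labelled pif1. The membrane proteins IZH1 (0.00), IZH2 (0.05), IZH3 (0.15) and IZH4 (0.08) did not pass, nor did PHO84 (0.30), a phosphate transporter that can also carry zinc. ZAP1, the activator, had a value on replicate 2 only (−0.45), and the vacuolar zinc transporter ZRC1 lies in the displaced run.

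Of 3 metallothioneins, small cysteine-rich proteins that bind copper, the 2 tested did not pass, and CRS5 was not tested. CUP1-1 was at 0.36 and 0.31 (adjusted p = 0.109) and CUP1-2 at 0.35 and −0.03 (adjusted p = 0.533). These are near-identical copies, whose signals a spotted array may not separate. Of 5 tested genes of copper and superoxide, SOD1, the copper-zinc superoxide dismutase, rose (1.08 and 0.66) and CTR1, the copper importer, fell (−0.67 and −0.83). Neither passed with an array left out. The mitochondrial SOD2 was at 0.79 and 0.34 (adjusted p = 0.102).

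Genes of iron uptake rose as a group. Of 18 tested, 14 rose and 1 fell (median 1.08, against 0.00 for all IDs); 10 rose with replicate 1 left out and 8 with replicate 2 left out. Cell wall mannoproteins that hold iron-siderophore complexes were the highest: FIT1 was at 2.38 and 2.25, FIT2 at 2.24 and 2.13. The siderophore transporters ARN1 (2.00 and 1.87) and ARN2 (1.90 and 2.04) followed, and SIT1, of the same family, rose less (0.79 and 0.77). FTR1, the iron permease, was at 1.26 and 1.00 and FET3, its partner ferroxidase, at 0.57 and 0.62, so both lay below FIT1, FIT2, ARN1 and ARN2 on both arrays. MRS4, the iron carrier of mitochondria, was at 1.46 and 1.32, ATX1, the copper chaperone, at 1.18 and 1.5, and CCC2, the copper pump that loads Fet3, at 0.86 and 1.5. FRE1, a ferric and cupric reductase, went the other way (−1.44 and −1.12, adjusted p = 0.000399). SIT1 and FET3 passed only with both arrays.

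On the arrays labelled pif1 the iron uptake genes had a lower median. Over the iron uptake genes with a value on all 4 zinc arrays, the median was 1.08 on the arrays labelled wild type and 0.29 on those labelled pif1. FRE1 was at −1.28 and −1.40 in the same order. Which values belong to which strain depends on the labels whose sums did not close.

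Among genes of iron sparing and recycling, 5 of 15 rose and 2 fell (median 0.23), with 2 and 3 rising with replicate 1 or replicate 2 left out. Beside HMX1, TIS11, which directs messenger RNAs of iron-using proteins to decay, was at 1.59 and 1.56. YAP5, the factor that answers to high iron, was at 0.82 and 0.96, VHT1, a biotin transporter, at 0.81 and 0.48, and ISU1, the Fe-S scaffold, at 0.62 and 0.39. GRX4, a glutaredoxin that reports cluster supply to Aft1, was at −0.94 and −1.04 and CCC1, which carries iron into the vacuole, at −0.49 and −0.33. TIS11 passed with either array left out, and YAP5, ISU1, GRX4 and CCC1 passed only with both.

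The list of Fe-S enzymes was split, and it also holds ADI1 and ABZ1, which carry no cluster. Of 16 tested, 8 fell and 2 rose (median −0.39), and 6 fell with either array left out. Beside LEU1, GLT1, LYS4 and ILV3, RLI1, an Fe-S protein of ribosome recycling, was at −1.73 and −1.49. ACO1, aconitase, fell less (−0.58 and −0.60), as did BIO2, biotin synthase (−0.38 and −0.58). RIP1, the Fe-S subunit of the respiratory chain, rose (0.47 and 0.64), as did ADI1 of the methionine salvage cycle (0.66 and 0.56), an enzyme that binds iron. ACO1, BIO2, RIP1 and ADI1 passed only with both arrays.

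**Figure D2:**
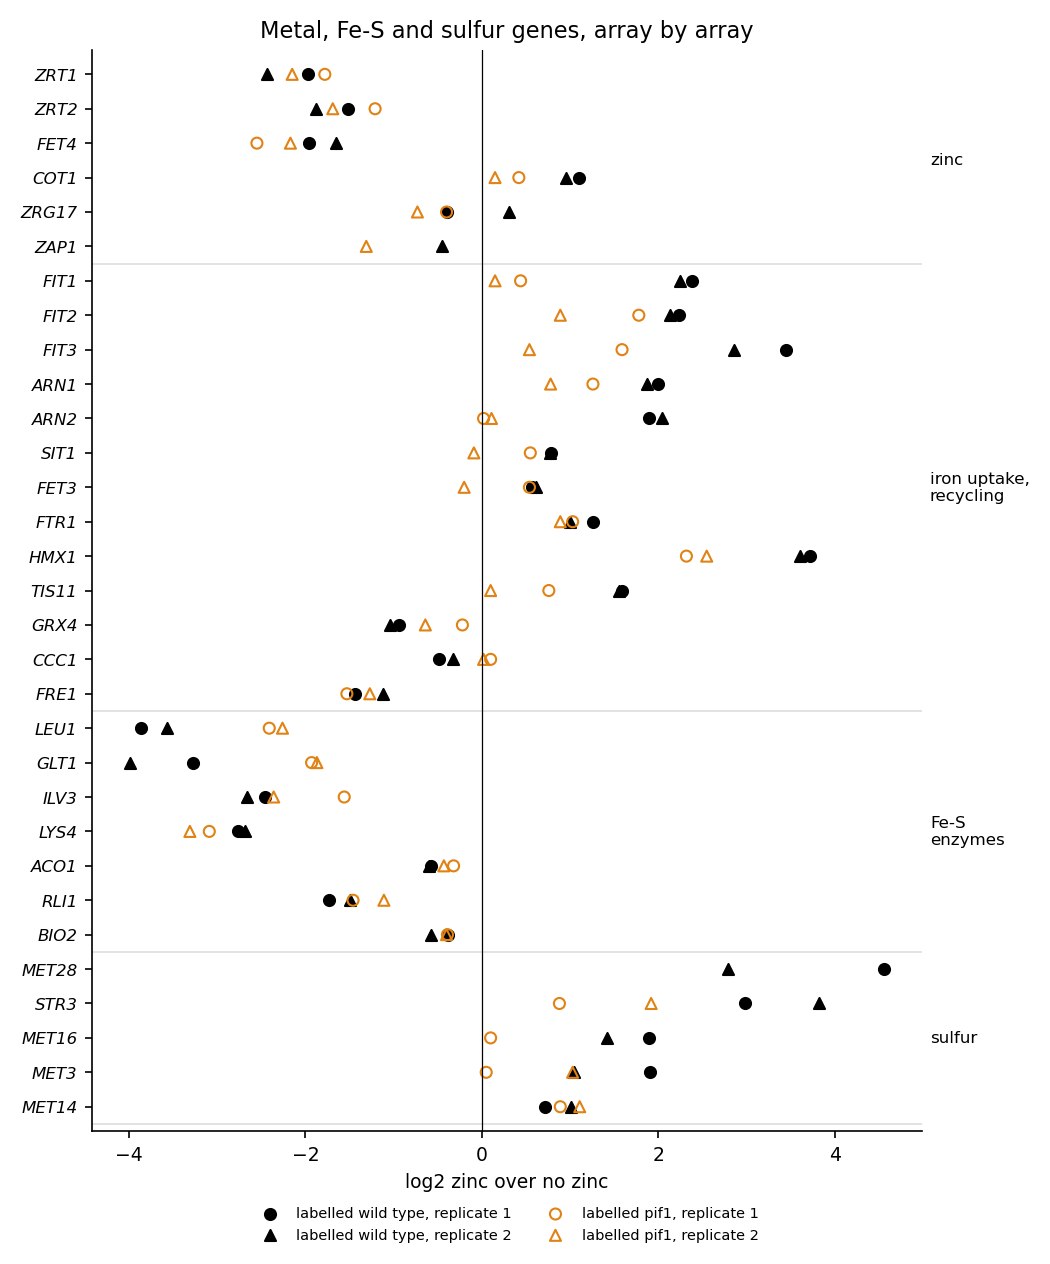
Log2 ratio of zinc over no zinc (x axis) for genes of zinc, iron, Fe-S enzymes and sulfur, with filled black symbols for the arrays labelled wild type and open orange symbols for those labelled pif1, circles for replicate 1 and triangles for replicate 2. FIT1, FIT2, FIT3, ARN1 and ARN2 lie further right on the arrays labelled wild type, while for ZRT1, ZRT2 and FRE1 the arrays of the labels overlap.

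The branched-chain amino acid pathway fell through most of its length. Of 13 genes, 9 fell and 0 rose (median −0.94), and 7 fell with either array left out. ILV5, acetohydroxyacid reductoisomerase, was at −1.35 and −1.61, LEU9, an isopropylmalate synthase, at −1.55 and −1.32, and BAT1, the mitochondrial transaminase, at −1.04 and −1.51. OAC1, a mitochondrial carrier that exports isopropylmalate, was at −1.07 and −1.43, ILV2 at −0.86 and −1.01, ILV1, threonine deaminase, at −0.85 and −0.60, and LEU3, the activator of the pathway, at −1.02 and −0.68. LEU4, the paralog of LEU9, was at −0.45 and −0.18 and did not pass. In lysine synthesis 3 of 9 genes fell (median −0.36): LYS4 and the homocitrate synthases LYS20 (−1.12 and −1.10) and LYS21 (−0.79 and −1.0), of which LYS4 alone passed with an array left out.

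Other amino acid pathways moved less. Of 14 genes of arginine and ornithine synthesis, 4 rose and 0 fell (median 0.14): ARG1 (0.86 and 0.99), ARG4 (0.72 and 0.86), the arginase CAR1 (0.78 and 0.52) and the carrier ORT1 (0.73 and 0.45). With replicate 1 left out 1 of them passed, and with replicate 2 left out 0. Of 17 genes of aromatic amino acids and histidine, GCN4, the activator of amino acid synthesis (−0.48 and −0.60), ARO7 (−0.38 and −0.62) and HIS4 (−0.45 and −0.41) fell, with 0 passing when either array was left out. Of 6 glutamate and ammonium genes, GLT1 and GLN1 fell and 0 rose (median −0.17). With replicate 2 left out the median was 0.10 over 8 genes, with 2 higher and 1 lower, and with replicate 1 left out it was −0.24 with 0 higher and 1 lower. GLN1, glutamine synthetase, was at −0.60 and −0.48 and passed only with both arrays.

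Sulfur genes rose in part. Of 27 genes of sulfate assimilation and methionine, 9 rose and 1 fell (median 0.28), with 8 and 5 rising with replicate 1 or replicate 2 left out. MET16, which reduces activated sulfate, was at 1.90 and 1.42, MET3, ATP sulfurylase, at 1.91 and 1.04, and MET14, its kinase partner, at 0.72 and 1.01. The methionine permease MUP1 was at 1.34 and 1.02, MET2 at 0.75 and 0.83 and MET30, a ubiquitin ligase subunit that restrains the pathway, at 0.61 and 0.58. MET31, a DNA-binding factor of the pathway, was at −0.60 and −0.34 (adjusted p = 0.0496) and passed only with both arrays. MET28 and STR3 stood well above the sulfate-reducing enzymes on both arrays.

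Storage carbohydrate genes rose together. Trehalose is a disaccharide that protects proteins in stressed yeast, and glycogen is the cell's glucose polymer. Of 17 tested, 13 rose and 0 fell (median 1.27), and 10 and 11 rose with replicate 1 or replicate 2 left out. TPS1, trehalose phosphate synthase, was at 2.03 and 2.10, TPS2, the phosphatase, at 1.27 and 1.45, and NTH1, the neutral trehalase that degrades trehalose, at 0.62 and 1.04. GLC3, the glycogen branching enzyme, was at 2.79 and 2.66, GSY1, glycogen synthase, at 2.17 and 1.11, and GDB1, the debranching enzyme that breaks glycogen down, at 1.47 and 2.47. UGP1, which makes the shared precursor UDP-glucose, was at 1.26 and 1.33. Over the 15 genes with a value on all 4 zinc arrays the median was 1.27, against 0.93 on the arrays labelled pif1. Genes of synthesis and of breakdown were thus higher in the same RNA.

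Of the 4 glucose kinases, 3 rose. GLK1, glucokinase, was at 2.87 and 2.65, HXK1, hexokinase 1, at 1.82 and 3.03, and EMI2, its paralog, at 1.44 and 1.43. HXK2, the main hexokinase in glucose, was at 0.12 and −0.11 (adjusted p = 0.986). The 3 that rose passed with either array left out. The median of the 4 was 1.93, against 1.42 on the arrays labelled pif1.

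Of 16 genes of the pentose phosphate pathway and aldo-keto reductases, 10 rose and 2 fell (median 0.90), with 8 rising and 0 falling with either array left out. SOL4, a phosphogluconolactonase, was at 2.57 and 2.17, ZWF1, glucose-6-phosphate dehydrogenase, at 1.16 and 0.90, and GND2 at 0.70 and 0.89. These belong to the oxidative branch, which makes NADPH. GRE3, aldose reductase, was at 1.84 and 1.73, ARA1 at 1.55 and 1.37 and YPR1 at 1.28 and 1.26. In the non-oxidative branch TKL1, transketolase, was at −0.60 and −0.70 and RKI1, ribose-5-phosphate isomerase, at −0.69 and −0.77, while NQM1 rose. All 5 aldehyde dehydrogenase genes passed: ALD3 (1.71 and 1.66), ALD2 (1.48 and 0.62), ALD4 (0.97 and 1.12) and ALD6 (1.16 and 0.86) rose and ALD5 (−0.41 and −0.67) fell. ALD3 and ALD4 passed with either array left out, ALD2 only with replicate 1 kept, and ALD5 and ALD6 only with both.

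Glycerol is the osmolyte of yeast. GPP2, glycerol phosphatase, was at 1.23 and 1.73, GPD1, glycerol-3-phosphate dehydrogenase, at 1.33 and 1.15, and DAK1, dihydroxyacetone kinase, at 1.09 and 0.96, and these 3 passed with either array left out. In all 4 of 10 glycerol genes rose and 1 fell (median 0.02). DAK2 was at −0.30 and −0.80 and passed only with both arrays, and GPD2, the paralog of GPD1, was at −0.49 and −0.40 (adjusted p = 0.0754).

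Several main glycolytic enzymes could not be read. Of 19 genes of lower glycolysis, 2 rose and 2 fell, but 8 held the same pair of deposited values within 0.002, −0.427 on replicate 1 and 0.211 on replicate 2. These are CDC19, ENO1, ENO2, FBA1, PDC1, TDH1, TDH2 and TDH3, and in all 16 IDs of the table shared this pair, among them TEF1, TEF2 and CCW12. These are the most frequent values on their arrays and give no order among the genes, and their cause was not tested. Among the genes with their own values, PYK2, the minor pyruvate kinase, was at 1.46 and 1.48 and passed with either array left out. GPM2 (0.81 and 0.33) rose, PFK1 (−0.58 and −0.33) and PDC5 (−0.52 and −0.54) fell, and these 3 passed only with both arrays. PGI1 (−0.02), TPI1 (0.11), PGK1 (−0.05), GPM1 (0.17), GPM3 (0.16), ADH1 (−0.10) and PDC6 (−0.49) did not pass. Of 6 genes of the glyoxylate cycle and gluconeogenesis, MLS1 alone passed.

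Hexose transporters did not move as a group (9 tested, 2 higher, 2 lower). HXT6 was at −1.85 and −1.61 (adjusted p = 0.000137) and HXT7 at 0.54 and 0.83 (adjusted p = 0.00741). These 2 genes are near-identical copies, so opposite signs from a spotted array are uncertain. HXT2, a high-affinity transporter, was at −0.58 and −0.65 and HXT15 at 0.51 and 1.07, and both passed only with both arrays. HXT1 (−0.16), HXT3 (−0.23) and HXT4 (0.37) and the regulators MTH1 (−0.46) and STD1 (0.16) did not pass. HXT5 had a value on replicate 1 only (1.47).

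**Figure D3:**
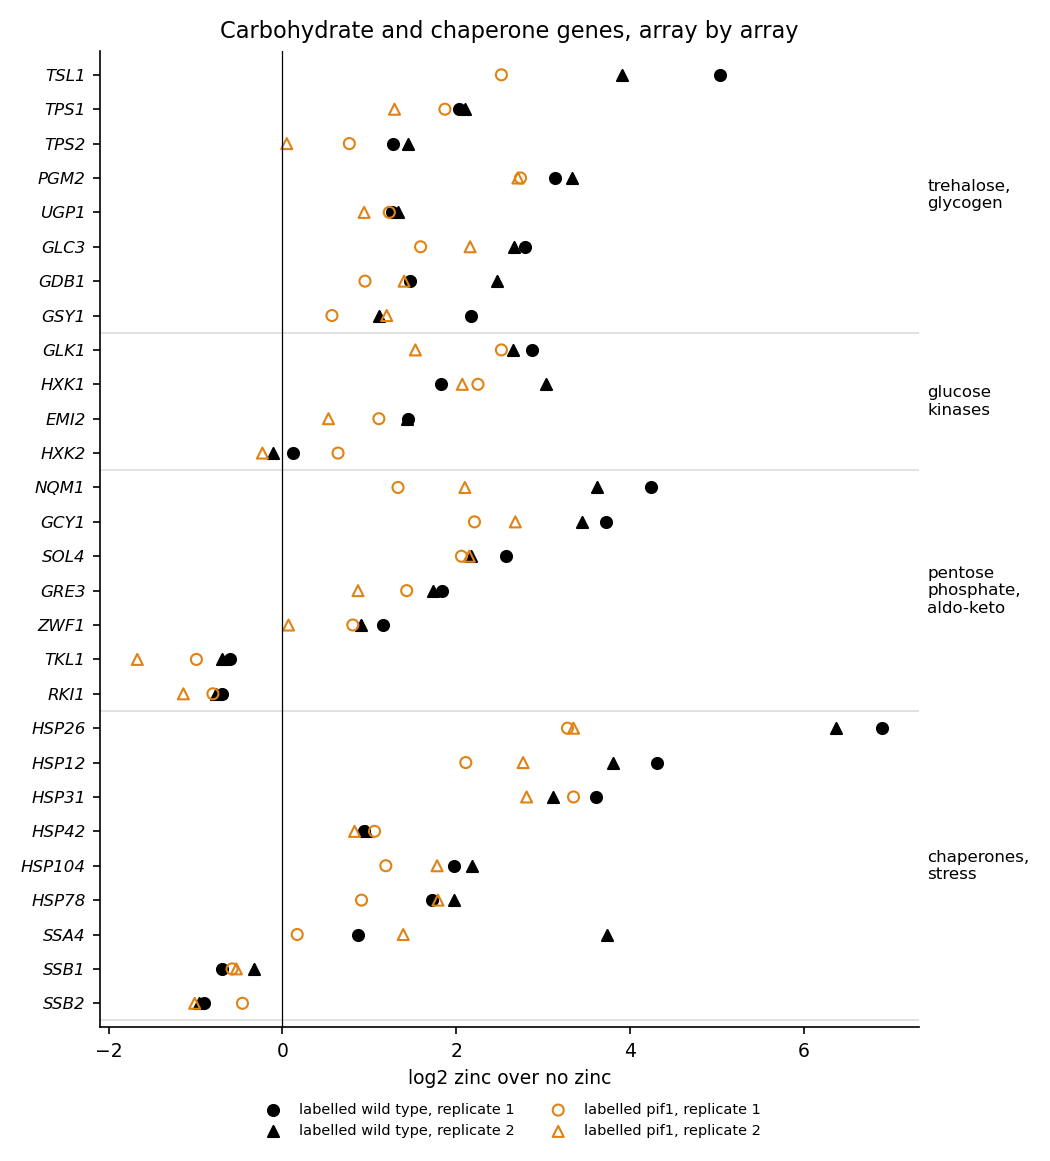
Log2 ratio of zinc over no zinc (x axis) for 28 genes of storage carbohydrate, glucose phosphorylation, the pentose phosphate pathway and chaperones, with filled black symbols for the arrays labelled wild type and open orange symbols for those labelled pif1, circles for replicate 1 and triangles for replicate 2. HSP26 lies near 6.6 on the arrays labelled wild type and near 3.3 on those labelled pif1, and SSA4 is spread from 0.87 to 3.73 between the arrays labelled wild type.

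Most small stress proteins rose. Of 11 small heat shock and membrane stress genes, 9 rose and 0 fell (median 2.69). DDR48, a stress-induced ATPase, was at 2.74 and 2.80, HSP30, a plasma membrane protein that restrains the proton pump, at 2.79 and 2.59, and GRE2, a methylglyoxal reductase, at 1.29 and 1.35. HSP42, the other small heat shock chaperone, was at 0.94 and 0.96. The list had a median of 2.31 on the arrays labelled pif1. HSP42 thus stood at 1.93-fold where HSP26 stood at 99.5-fold.

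Of 23 genes of the Hsp70, Hsp90 and Hsp104 families and their partners, 12 rose and 2 fell (median 0.42), with 6 and 5 rising with replicate 1 or replicate 2 left out. HSP104, the disaggregase, was at 1.97 and 2.18, HSP78, its mitochondrial relative, at 1.72 and 1.98, SSE2, an exchange factor, at 1.96 and 2.32, and BTN2, an aggregate sorter, at 1.58 and 1.76. SSA4, the inducible Hsp70, was at 0.87 and 3.73 and passed with replicate 1 left out but not with replicate 2 left out. SSB1 (−0.69 and −0.33) and SSB2 (−0.90 and −0.96), the Hsp70s that ride on ribosomes, fell and passed only with both arrays. SSA4 and SSA2, another Hsp70 gene that passed, thus lay above 0, and SSB1 and SSB2 lay below it.

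In the endoplasmic reticulum 8 of 16 genes rose and 1 fell (median 0.49), with 3 and 5 rising with replicate 1 or replicate 2 left out. SIL1, an exchange factor, was at 1.48 and 1.05, the oxidase ERO1 at 1.06 and 1.06, MPD1, a disulfide isomerase, at 1.20 and 0.98, and KAR2, the Hsp70 of this compartment, at 0.53 and 0.91. HAC1, whose product drives the unfolded protein response after its messenger RNA is spliced, was at −0.64 and −0.50 and passed only with both arrays.

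Some genes of protein turnover rose. UBI4, which encodes a chain of ubiquitins, was at 1.52 and 2.13, and the conjugating enzymes UBC5 (1.36 and 1.5) and UBC8 (1.19 and 1.70) rose with it. Of 15 ubiquitin genes, 7 rose and 1 fell (median 0.60), with 3 and 2 rising with replicate 1 or replicate 2 left out. Proteasome subunits moved by less: 10 of 30 rose and 0 fell (median 0.36, highest RPN7 at 0.44 and 0.93), and 1 and 0 rose with replicate 1 or replicate 2 left out. In autophagy 8 of 18 rose and 0 fell (median 0.40, with 4 and 3), led by the receptor ATG19 (1.43 and 1.95), its paralog ATG34 (1.08 and 1.98) and ATG8 (1.91 and 1.45), which is lipidated on autophagic membranes. Of 9 vacuolar protease genes, 5 rose and 0 fell (median 0.97): aminopeptidase APE1 (2.46 and 2.52), mannosidase AMS1 (2.50 and 2.01), the inhibitor PBI2 (1.75 and 1.46), protease PRB1 (1.54 and 1.5) and protease PEP4 (0.98 and 0.97). The protease list had a median of 0.13 on the arrays labelled pif1. APE1, AMS1 and ATG19 are cargoes and receptor of 1 route, the cytoplasm-to-vacuole pathway. The vacuolar proton pump, by contrast, had 1 of 16 genes higher, the pump isoform STV1 (0.45 and 0.52), and 2 lower (median −0.02). These are VMA16 (−0.52 and −0.50) and PMA1, the plasma membrane pump listed with it (−0.75 and −0.60). All 3 passed only with both arrays.

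Glutathione and thioredoxin genes rose in part (11 of 21 higher, 1 lower, median 0.61), with 4 and 8 rising with replicate 1 or replicate 2 left out. ECM4, an omega-class glutathione transferase, was at 2.46 and 2.74, its relative GTO3 at 2.31 and 1.66, GTT1 at 1.90 and 1.13, the glutaredoxin GRX1 at 1.52 and 1.44 and the thioredoxin TRX2 at 1.25 and 0.90. OPT1, a transporter of glutathione and peptides, was at −0.86 and −0.88 and passed only with both arrays. Of 13 peroxidases, catalases and regulators, 5 rose and 2 fell (median 0.17, with 3 rising with either array left out). The peroxiredoxins TSA2 (2.26 and 1.84) and PRX1 (1.75 and 1.64) rose, as did GPX1 (1.88 and 1.25), and the cytosolic catalase CTT1 rose by less (0.59 and 0.36). CCP1, the cytochrome c peroxidase, was at −1.35 and −1.29, and SKN7, an activator of oxidative stress genes, at −0.42 and −0.76. YAP1, the other such activator, was at −0.04 and 0.25. Over the 11 genes of this list with a value on all 4 zinc arrays, the median was 0.17 against 0.92 on the arrays labelled pif1.

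Aryl-alcohol dehydrogenases form a family of near-copies, of which AAD6 (1.54 and 1.70) and AAD3 (0.94 and 1.11) rose among 4 tested (median 0.62, against 0.03 on the arrays labelled pif1). Of 16 multidrug resistance genes, 7 rose and 0 fell (median 0.37, with 2 and 3 with replicate 1 or replicate 2 left out): the polyamine exporters TPO4 (1.75 and 1.49), TPO2 (1.02 and 0.94) and TPO1 (0.59 and 0.75), the facilitator FLR1 (1.20 and 1.36) and the pumps PDR5 (0.52 and 0.78) and YOR1 (0.51 and 0.68) among them.

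**Figure D4:**
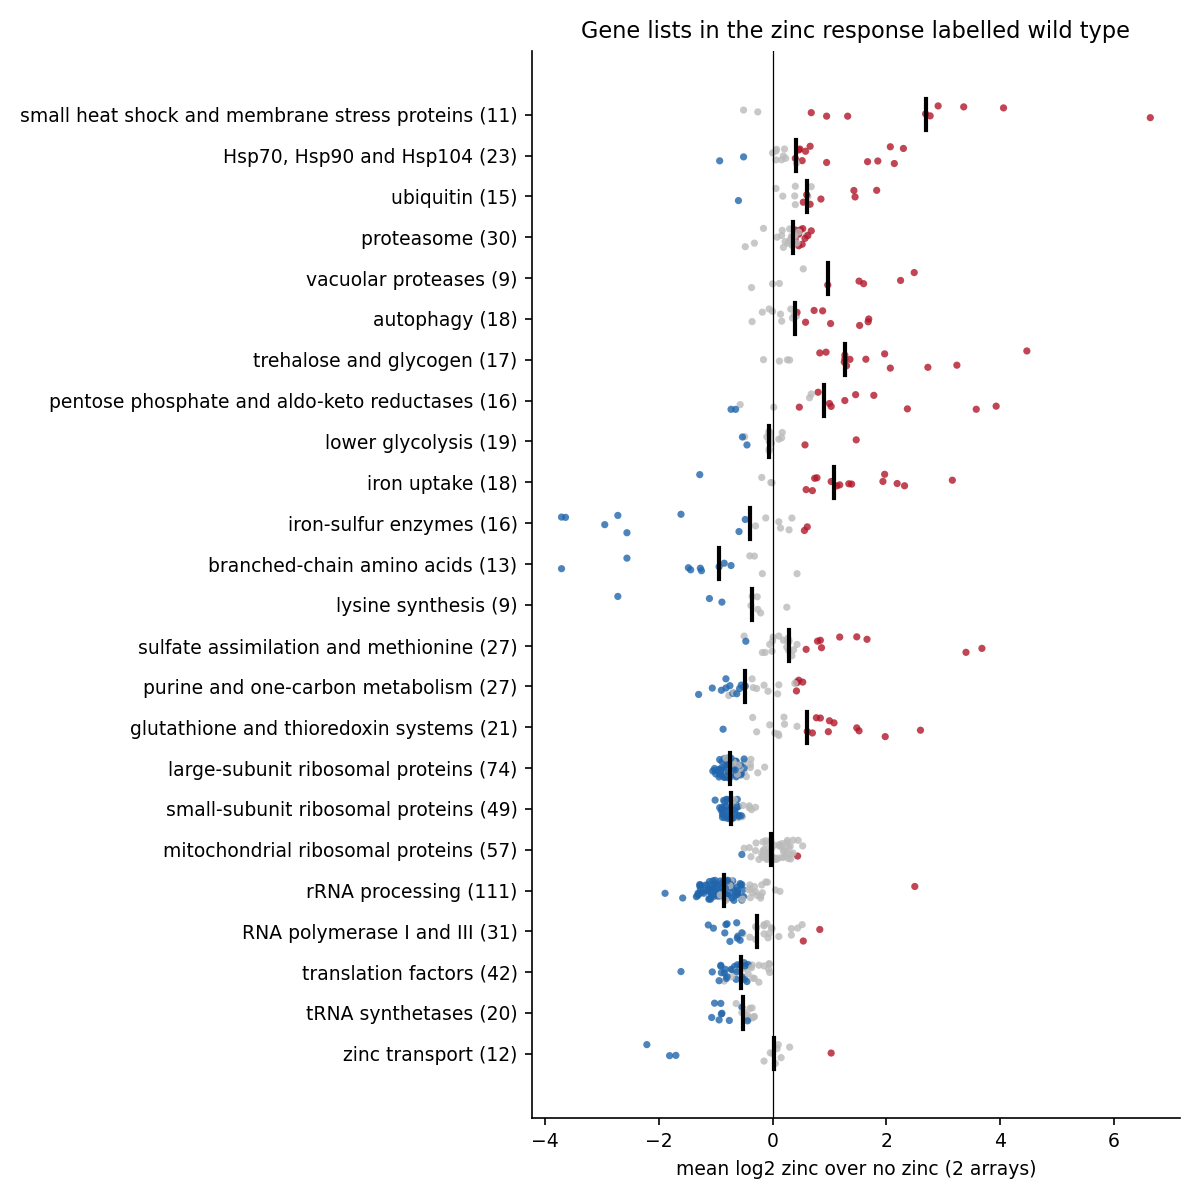
Mean log2 ratio of zinc over no zinc over the 2 arrays (x axis) for each tested gene of 24 lists (rows, with the number tested), with red for passed and higher, blue for passed and lower, grey for not passed, and a black bar at the list's median. Ribosomal protein and rRNA processing genes lie mostly left of 0, with NOP1 apart at 2.50. The list of Fe-S enzymes spreads from −3.71 to 0.61, where its highest member is ADI1, which carries no cluster.

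Most genes of ribosomal proteins and rRNA processing fell. Of 74 large-subunit ribosomal protein genes, 57 fell and 0 rose (median −0.74), and of 49 small-subunit genes, 37 fell and 0 rose (median −0.73). The lowest were RPP0 (−0.90 and −1.21), RPL5 (−0.88 and −1.16) and RPS9B (−0.89 and −1.14), and the highest means of the lists were −0.14 and −0.30. Of the 2 lists, 73 and 49 genes lay below 0 on both arrays, with RPL41A as the exception. The change was small per gene. With replicate 1 left out 17 large-subunit and 11 small-subunit genes passed, and with replicate 2 left out 2 and 2. The medians were −0.61 and −0.57 on replicate 1 and −0.86 and −0.90 on replicate 2, and on the arrays labelled pif1 −0.34 and −0.32. Many of these genes are pairs of near-identical copies, whose signals may not be separate. Mitochondrial ribosomal proteins had a median of −0.02, with 1 of 57 higher (MRP21, 0.64 and 0.24) and 1 lower (RSM25, −0.40 and −0.68), both only with both arrays.

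Of 111 rRNA processing genes, 86 fell and 1 rose (median −0.85), with 31 and 46 falling with replicate 1 or replicate 2 left out. DBP2 led, followed by NSR1, a nucleolin-like protein (−1.56 and −1.60), and MAK5, a helicase of the large subunit (−1.47 and −1.21). NOP1, fibrillarin, the methyltransferase of box C/D small nucleolar particles, rose to 2.54 and 2.46 (5.67-fold, adjusted p = 2.32e-05). It also stood at 1.74 and 1.54 on the arrays labelled pif1. Its partners in those particles, NOP56 (−0.92 and −1.17) and NOP58 (−1.17 and −1.06), fell. RNA polymerase I and III genes fell in part (11 of 31 lower, 2 higher, median −0.28): RPC82 (−1.24 and −1.01), RPA43 (−1.01 and −1.07) and RPA49 (−0.84 and −0.84) fell, and TFC3 (0.89 and 0.77) and RRN10 (0.66 and 0.41) rose and passed only with both arrays. With replicate 1 or replicate 2 left out 3 and 4 fell. For RNA polymerase II subunits 1 of 9 passed (RPB5, −0.48 and −0.60, only with both arrays).

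Translation factors fell in 25 of 42 cases and rose in 0 (median −0.55, with 4 and 9 falling with replicate 1 or replicate 2 left out). Beside RLI1, TIF4631, the scaffold eIF4G, was at −1.24 and −0.88 and YEF3, an elongation factor, at −1.05 and −0.83. EFT1 and EFT2, identical copies of elongation factor 2, both fell. Of 20 tRNA synthetases, 9 fell and 0 rose (median −0.52, with 2 and 5), led by MES1, the methionine enzyme (−1.10 and −1.03). All 20 lay below 0 on both arrays.

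Purine and one-carbon genes fell in 12 of 27 cases and rose in 4 (median −0.48, with 4 and 3 falling and 0 rising with replicate 1 or replicate 2 left out). IMD4 (−1.37 and −1.22) and IMD3 (−0.80 and −0.83), IMP dehydrogenases of guanine nucleotide synthesis, and FCY2, a purine permease (−0.98 and −1.13), were among the lowest. SER3, of serine synthesis (0.52 and 0.53), and ADE16 (0.42 and 0.50) rose and passed only with both arrays.

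A minority of the respiratory genes rose. Of 26 genes of complexes III and IV and the ATP synthase, 10 rose and 0 fell (median 0.37), with 3 rising with either array left out. STF2, a stabiliser of ATP synthase inhibition, was at 2.20 and 2.12, COX5B, the hypoxic cytochrome oxidase subunit, at 1.91 and 1.32, and ATP15 at 1.37 and 0.78, and these passed with either array left out. Of 23 genes of the TCA cycle and retrograde response, 5 rose and 1 fell (median 0.12): the citrate synthases CIT2 (1.09 and 0.97) and CIT1 (0.80 and 0.71), LSC2 (0.91 and 0.99), MDH1 (1.16 and 0.71) and PYC1 rose, and 3 of them passed with replicate 1 or replicate 2 left out. In mitochondrial import MIA40 (0.45 and 0.70) rose and TIM23 (−0.47 and −0.46) and PAM18 (−0.30 and −0.60) fell among 21, none with an array left out.

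In ergosterol synthesis 3 of 24 genes fell and 0 rose (median −0.12): ERG11, lanosterol demethylase (−1.43 and −1.62), ERG1, squalene epoxidase (−1.39 and −1.43), and ERG7, lanosterol synthase (−1.43 and −1.12). The same 3 passed with either array left out, and they act next to each other, from squalene to the demethylation of lanosterol. Of 16 genes of fatty acid and phospholipid synthesis, 2 rose and 2 fell (median −0.05). OPI3, which methylates phosphatidylethanolamine, was at 1.98 and 1.35 and PSD2 at 0.38 and 0.85, and the elongases ELO3 (−0.65 and −0.97) and ELO2 (−0.57 and −0.67) fell. ELO3 alone passed with replicate 1 left out and OPI3 alone with replicate 2 left out. Of 7 fatty acid oxidation genes PIP2 (0.52 and 0.74) rose.

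Of 19 phosphate genes, 5 rose and 1 fell (median 0.26, with 3 and 2 rising with replicate 1 or replicate 2 left out). PHM8, a phosphatase, was at 1.93 and 2.04, PHO5, the secreted acid phosphatase, at 1.22 and 1.28, and its copies PHO11 (0.97 and 0.66) and PHO12 (0.88 and 0.59) rose too, while PHO4, the activator, was at −0.66 and −0.39. PHO4, PHO11 and PHO12 passed only with both arrays. In the 21 genes of cell wall integrity the median was 0.44, with 6 higher and 0 lower, and 1 rose with either array left out, GSC2, the stress-induced glucan synthase (0.95 and 1.25). PIR1 (1.06 and 0.66) and SED1 (0.99 and 0.72), wall proteins, and YPS1 (0.67 and 0.56), a wall protease, rose with both arrays only.

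Genes of division moved little. Of 23 cell cycle genes, CLB6 (−0.33 and −1.07), FAR1 (−0.62 and −0.58), DSE2 (−0.48 and −0.68) and SWI5 (−0.72 and −0.36) fell and 0 rose (median −0.21), and none of the 4 passed with an array left out. Of 10 histone genes, HTB2 fell (−0.30 and −0.56, adjusted p = 0.0477), only with both arrays. HTA1 (−0.16), HTA2 (−0.28), HTB1 (−0.20), HHT1 (−0.11), HHT2 (−0.04), HHF1 (−0.23), HHF2 (−0.26), HTZ1 (0.00) and HHO1 (0.32) did not pass, and the list median was −0.17 against 0.24 on the arrays labelled pif1. Of 16 mating genes, 6 rose and 1 fell, with ASG7 (1.44 and 0.78) and FUS1 (1.10 and 0.61) highest, 0 of them with replicate 1 left out. Of 16 DNA damage genes, PHR1, the photolyase (0.60 and 1.01), and RFX1 (0.55 and 0.61) rose and RNR2, a ribonucleotide reductase subunit (−0.49 and −0.52), fell, with 0 passing when either array was left out. Of 18 subtelomeric and seripauperin genes, PAU1 (0.76 and 0.46) rose and TIR1 (−0.82 and −1.26), COS6, YRF1-7 and PAU23 fell, in families of near-identical copies. With replicate 1 left out 1 of this group passed, and with replicate 2 left out 0.

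Among 24 stress regulators, 8 rose and 2 fell (median 0.22, with 5 and 3 rising with replicate 1 or replicate 2 left out). TPK2 (1.05 and 0.99), a catalytic subunit of protein kinase A, rose, and so did PDE1, a cyclic AMP phosphodiesterase that opposes that kinase (1.21 and 0.89), and BCY1, its regulatory subunit. MGA1, a factor related to heat shock factor, was at 1.3 and 1.10. SKO1 (−0.48 and −0.50) and HOT1 (−0.49 and −0.43), factors of the osmotic response, fell and passed only with both arrays. PDE1 and MGA1 passed with either array left out, TPK2 with replicate 2 left out, and BCY1 only with both arrays.

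Set beside the arrays labelled pif1, the zinc response labelled wild type differed in 6 of 4046 IDs (0.148%) by limma's contrast. HSP26 was at 6.90 and 6.37 against 3.28 and 3.35, a difference of 3.32 (adjusted p = 0.0096). The iron genes FIT1 (2.32 against 0.29) and ARN2 (1.97 against 0.06) and the dehydrogenase AAD6 (1.62 against −0.31) were also higher on the arrays labelled wild type. GPX2, a glutathione peroxidase, was at −0.15 and −0.13 on the arrays labelled wild type against 2.32 and 2.89 on those labelled pif1 (adjusted p of the difference 0.00486). In these 6, picked by the contrast, the arrays of the 2 labels did not overlap, which the test favours. LEU1 was at −3.71 against −2.34. With either array labelled wild type left out 0 differences passed, and likewise with the arrays scaled to 1 spread or given 1 distribution. With replicate 1 or replicate 2 of the arrays labelled pif1 left out, 65 and 36 passed. For the other IDs a p that missed the threshold does not show that the strains responded alike.

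For 5 of these 6 genes the mutant arrays labelled with zinc could be set against the sum of the other comparisons. HSP26 was at 2.07 there, where the sum gave −4.11 as labelled and 2.54 with the strain labels exchanged. GPX2 was at −2.56, where the sums were 2.79 and −2.69. FIT1 (1.5, against −2.31 and 1.74), ARN2 (1.20, against −2.29 and 1.52) and LEU1 (−0.25, against 2.97 and 0.21) lay closer to the exchanged sum as well. Reversing the direction of the mutant ratios would bring these values as close to the sum as the exchange does. Which label is displaced, if any, or whether the mutant ratios run the other way, cannot be told apart from these values.

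**Figure D5:**
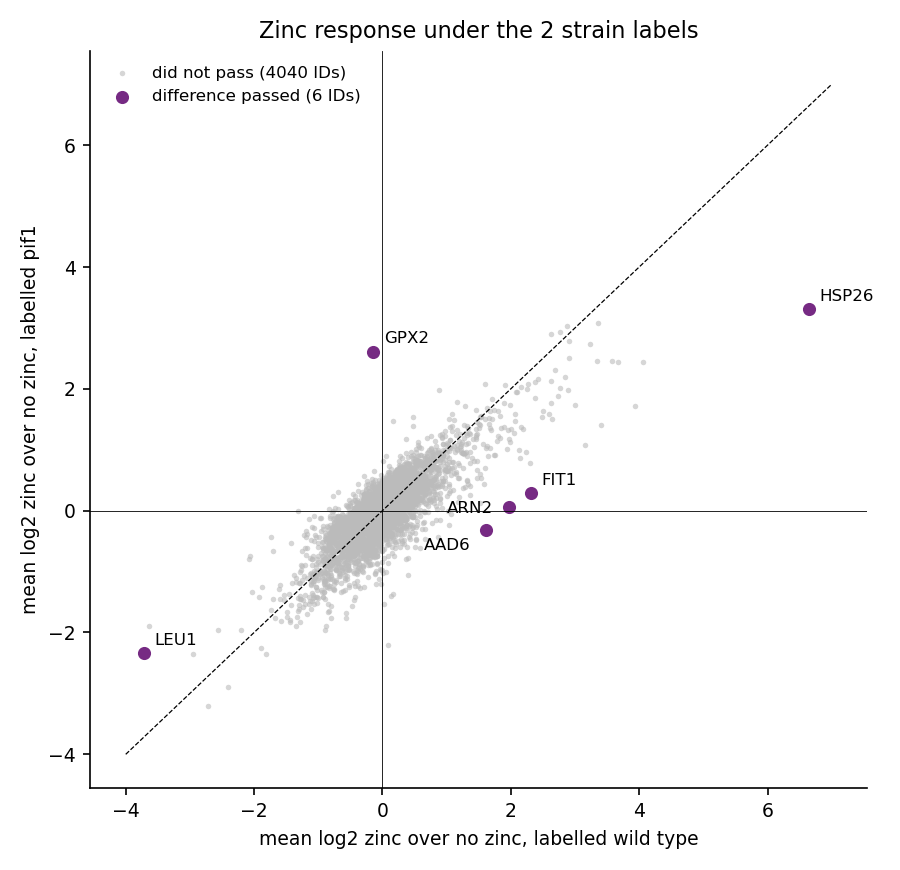
Mean log2 ratio of zinc over no zinc on the arrays labelled wild type (x axis) and on those labelled pif1 (y axis), with 1 point per ID and the dashed line at equal values. The 6 IDs whose difference passed are named, with GPX2 alone far above the line and HSP26 furthest to the right.

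Some IDs rest on arrays that disagree. RTS2, a basic zinc-finger protein, was at 2.16 and −1.90, the largest SD of all tested IDs (2.88), and did not pass. SLP1 was at −2.55 and −0.06 and MON2 at −1.47 and 0.30, and neither passed. GID8, of a ubiquitin ligase of gluconeogenic enzymes, was at 1.94 and 0.15 and passed (adjusted p = 0.0422), but not with replicate 1 left out. Among IDs with a value on 1 array, UGX2 was highest (5.07 on replicate 1), followed by FMP45 (2.78 on replicate 2) and SPS19 (2.18 on replicate 2), and the arginine transporter ALP1 was lowest (−2.65 on replicate 1).

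Between YMR176W and YMR250W the values on the 2 wild-type zinc arrays correlated with those of the arrays labelled pif1 at −0.078 across 40 IDs as deposited, and at 0.914 across 51 IDs when moved to the next ID. The largest value there was deposited at RKR1 (3.01) and, when moved, falls to GAD1, glutamate decarboxylase (2.82 and 3.20, against a mean of 1.97 on the arrays labelled pif1). The value deposited at RPL36A (1.75) moves to ICY1 and that at DFG5 (−1.18) to RNT1. ZRC1 was at 0.72 as deposited and at −0.74 when moved (−0.79 on the arrays labelled pif1). These IDs entered no count above.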

How the data were processed

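Relative RNA abundance was measured on 8 spotted 2-colour arrays, as 4 comparisons with 2 dye-swapped arrays each. Per the labels' protocols, 8 ug of total RNA was reverse transcribed with oligo(dT) and labelled indirectly with Cy3 or Cy5, and spots under 120 um in diameter or under 100 fluorescence units were left out. The authors deposited 1 table of log ratios, taken here as log2, with the RNA named first in a title as the numerator; the log base, direction, centring and normalization are not given in the sources used here. No intensities or depths were used, so the number of arrays alone limits the precision.

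Each array was centred on its median, and 2 placeholder values above 16 in size were set aside. A model with 1 coefficient per comparison was fitted over all 8 arrays (4 residual degrees of freedom) with limma 3.58.1 in R 4.3.3, and p-values were adjusted by Benjamini-Hochberg over all 4578 IDs, with a threshold of 0.05. A gene "passed" by this test. The spread is thus shared with the other comparisons. The difference between strain labels was a contrast over 4046 IDs. The fit was tested on simulated data. Symbols came from RefSeq (5662 IDs matched).

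The named genes were, by rule, the 15 highest and 15 lowest that passed, up to 4 passing members of each list by size and up to 2 of the opposite direction, all members of the zinc, hexose, glycolysis, histone, hexokinase and metallothionein lists, the 5 IDs with the largest SD, those differing most between strain labels, and up to 5 of the displaced run. Some genes that the rule picks are not reported here. Other members were named for their role after their values were seen. The members and lists were chosen with earlier results of these data known. Same-numbered arrays were not taken as pairs, since the labels do not say that a number marks a shared culture or day. Alternatives covered centring, scaling, samples fitted, the replicate block, a dye term, each array left out, presence filters and a fold threshold. Promoter sequences were not analysed here.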

Additional observations from a re-analysis of the deposited data

Results flagged for a closer look

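The zinc response differed between the arrays labelled wild type and those labelled pif1 for 6 genes by limma's contrast, given here as wild type minus pif1 on the log2 scale. HSP26, a small heat shock chaperone, differed by 3.32, and was higher on both arrays labelled wild type. FIT1, a siderophore-retaining mannoprotein, differed by 2.02, and ARN2, a siderophore transporter, by 1.91. AAD6, an aryl-alcohol dehydrogenase, differed by 1.93. GPX2, a glutathione peroxidase, had a difference of −2.74 and LEU1, isopropylmalate isomerase, one of −1.38. The strain behind each value rests on the labels of the zinc arrays.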

How the results depend on the processing

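Of 218 named genes that passed, 117 and 119 still passed with replicate 1 or replicate 2 left out, 150 with the arrays scaled to 1 spread and 150 with 1 distribution, and 0 changed sign under any alternative run. The count of 1382 IDs became 700 with the arrays scaled, 671 with 1 distribution and 207 against a threshold of 1.5-fold. It was 842 with the 4 zinc arrays fitted alone and 1919 with the 2 arrays labelled wild type alone. Leaving out 1 array gave between 434 and 1936 IDs. The lone array left in a comparison was then assumed to vary like the others. Leaving the arrays uncentred gave 1362 IDs, of which 565 were higher, and turned the medians of the zinc and glycerol lists to −0.02 and −0.03.

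The 6 differences between strain labels became 0 with the arrays scaled (191 at an unadjusted p under 0.05), 0 with 1 distribution (149) and 11 with the displaced run kept. Leaving out 1 array gave between 0 and 65. With the mutant arrays averaged in 0 passed (210 unadjusted), and with their zinc labels exchanged, an alternative chosen after seeing the data, 16 passed. Leaving out the tied IDs, also chosen after seeing the data, gave 1383 and 6. The causes were not tested.

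With the replicate number as a block, 1953 IDs passed and 81 differences. Differences between replicate 1 and replicate 2 correlated across comparisons (r from 0.438 to 0.552 over 3857 IDs), which is a hint from the data and not from the design. Each pair is a dye swap, so replicate number and dye changed together within it, and the mutant pairs had the dyes in the other order. With the direction of the mutant ratios not given, replicate number and dye cannot be told apart here.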

Other observations

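Genes of pyrimidine supply fell beside those of purines, in a list chosen after its values were seen. Of 14 genes, 8 fell and 0 rose (median −0.61, against 0.00 for all IDs), and 5 fell with either array left out. At an unadjusted p under 0.05, 1 was higher and 8 were lower. URA1, dihydroorotate dehydrogenase, was at −1.56 and −1.63, URA7, CTP synthase, at −1.54 and −1.43, URA4, dihydroorotase, at −0.87 and −1.34, and FUR1, uracil phosphoribosyltransferase, at −0.99 and −1.13. URA6, uridylate kinase, was at −0.10 and −0.50 (limma adjusted p = 0.312).

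Fe-S proteins outside amino acid synthesis were also looked at after their values were seen. Of 4 that modify tRNA or make diphthamide, a modified residue of elongation factor 2, DPH2, TYW1 (−1.32 and −1.32), a wybutosine enzyme, and ELP3 (−1.17 and −1.10), the catalytic subunit of Elongator, fell. DPH1 was at −0.32 and −0.32 and did not pass, and ELP3 passed only with both arrays. Of 6 Fe-S proteins of DNA replication and repair, 0 passed (1 lower at an unadjusted p under 0.05 by limma). Genes beside these that carry no cluster also fell: of 9 other Elongator and diphthamide genes, IKI3 (−1.24 and −1.23), ELP6 (−0.45 and −0.92) and KTI12 (−0.31 and −0.82) did. Of 8 genes of cytosolic Fe-S assembly NBP35 (0.82 and 0.71) rose and CIA2 (−0.42 and −0.42) fell, neither with an array left out. Of 13 of mitochondrial assembly ISA2 (0.94 and 0.99) and ISU1 rose and YFH1 (−0.48 and −0.91) fell.

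The next 2 lists were also chosen after their values were seen. Of 3 tested GABA shunt genes, 2 rose and 0 fell: UGA1, GABA transaminase (1.75 and 1.67), and UGA2, succinate semialdehyde dehydrogenase (1.57 and 1.48). Of 5 genes of butanediol and NAD(P)H repair, 5 rose. Beside BDH2, BDH1, butanediol dehydrogenase, was at 1.5 and 1.61. PNC1, nicotinamidase, was at 2.30 and 2.02, and the repair enzymes of damaged NAD(P)H, NNR1 (1.99 and 1.49) and NNR2 (2.00 and 2.17), rose with it. These passed with either array left out.

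RTS2 was positive on replicate 1 and negative on replicate 2 in all 4 comparisons: 2.16 and −1.90, 1.39 and −4.19, 1.23 and −2.69, and 1.95 and −2.09. On replicate 1 the RNA named first was in Cy5 in the zinc comparisons and in Cy3 in the mutant comparisons. As labelled, the sign thus followed the replicate number, and with the mutant ratios reversed it would follow the dye. The cause was not tested.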
